A study of Mus musculus with 8 samples.

Results

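Small RNAs annotated to MIR and L2 elements, long-extinct repeats of the mammalian genome, were described in a pooled list of mouse testis small RNAs. Members were all rows whose annotation began with MIR (the repeat, not a miRNA hairpin) or with L2. There were 56657 of them with a length of 24 to 33 nt, the size of piRNAs, among 4883266 distinct sequences of that length (1.16%). At all lengths there were 78605 of 6246223. The labels describe 8 libraries of small RNA from testes of Tudor gene mutants, 1 in each of 8 groups. These were homozygous and heterozygous tdrd1-KO testes at 18.5 days after conception, and homozygous and heterozygous tdrd6-KO testes aged 18 days, 25 days or 6 weeks. The labels list no wild-type library, and the sources used here do not give strain or allele details. The table ties no sequence to a library and holds no read numbers, so genotypes and ages were not compared and the depth of the libraries is unknown. Each row is 1 distinct sequence, counted once however often it was read. Counts below therefore measure variety, not abundance.

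MIR is a SINE, a short element derived from a tRNA gene and without enzymes of its own, and L2 is a LINE, which encoded the reverse transcriptase that copied it. Both spread early in mammalian evolution. MIR is known to share its 3' tail with L2, whose enzymes are thought to have copied it. No copy of either is known to move in mice today, and the copies that remain are short and have drifted far apart in sequence. piRNAs are small RNAs that guide Piwi proteins in germ cells. Most begin with U, written T in the table. Those against active transposons are multiplied in a ping-pong cycle, in which a guide cuts a transcript of the other strand and the cut product becomes a new piRNA. Its 5' end overlaps that of the guide by 10 nt, and its position 10 is then A. Those of meiotic (pachytene) cells come largely from long noncoding precursors read from 1 strand. Of the Piwi proteins in these cells, MIWI is known to carry longer piRNAs than MILI. TDRD1 and TDRD6 are Tudor-domain proteins that bind Piwi proteins.

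Sequences from the richest located places are shown here because many of the located members came from them. Only members on annotated transcripts could be located. Runs of overlapping members that could not be placed held up to 893 members, more than some of these loci. At each of the 6 located loci with most members, the 5' end with the most 3' end forms is given. It is shown as its form of 30 nt, with capitals at positions 1 and 10. Each of these 6 had 10 forms, of 24 to 33 nt, and the window holds 10 lengths. All 6 lie in exons on the sense strand of the named gene, and their coordinates, from exact matches to annotated transcripts, are on the mouse genome GRCm38.
1700029M20Rik, L2b, chr4:135628990-135629019, plus strand: TaaataaatGtgcagtatcaagaaaacagt
1700001L05Rik, MIRb, chr15:83356235-83356264, minus strand: GaggaaactGaagcttagggtagtcacagc
Tbl2, MIRc, chr5:135160319-135160348, plus strand: TgtaaaatgGggaacgatgctctctgtggc
Gm21269, L2c, chr7:73821920-73821949, plus strand: TggtcccagCgatgtttttgattttgtgtg
Gm10619, MIRc, chr7:73783466-73783495, minus strand: TgctagtagGtgatctgggcacactcatta
Gm49794, MIRb, chr17:27358068-27358097, plus strand: TaagtgctcAataaaaagtgagcagcgcct
In this set 5 of 6 begin with T, and 1 of 6 has A at position 10.

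Short words of sequence recurred among separate copies. Among words of 11 bases in members that mapped to 1 position, GAAACTGAGGC or its reverse complement occurred in the most separate MIR stretches (runs of overlapping members, defined below), 97 of 11493 or 0.844%. Simple words, with few different pairs of neighbouring bases, were left out of this ranking. The forward word was in 77 stretches and the reverse complement in 23. At 24 to 33 nt the word was found in 231 of 35529 MIR sequences (0.650%) and in 0 of 21128 L2 sequences (exact upper limit 0.0175%). It was also absent from ancient L1, MLT and MST, DNA transposon and young L1 rows, and was found in 0.0102% of mRNA rows and 0.0067% of unannotated rows. The word was chosen on the MIR rows, so these shares are a description. The next words in order were mostly shifted versions of it, such as GGAAACTGAGG in 85 stretches and AAACTGAGGCT in 55. Examples from different loci are shown because they carry what separate copies have in common, with the word, in either direction, in capitals.
MIR in 4930558J18Rik, sense, chr1:57360431-57360460, minus strand: taaataacctttctgaGCCTCAGTTTCccc
MIRc in Tug1, a long noncoding RNA gene, sense, chr11:3648348-3648375, minus strand: tctgtctgcGCCTCAGTTTCctcctctg
MIRm on Ate1, which encodes an arginyltransferase, antisense, chr7:130520196-130520220, plus strand: tacagataggGAAACTGAGGCtcca
MIR on Gas2l1, antisense, chr11:5064913-5064937, plus strand: ttctacagatgagGAAACTGAGGCg
MIR in Gm49066, sense, chr15:73423519-73423543, plus strand: tgggGAAACTGAGGCacagagagta
MIR on Gm12762, antisense, chr7:34233899-34233924, plus strand: tgagGAAACTGAGGCaagagtatatg

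The most widespread word of the L2 rows, again without simple words, was TATTTATTGAG, in 13 of 5787 stretches (0.225%). The next in order was in 11. It was found in 225 L2 sequences, of which 144 were L2a, 71 L2c and 10 L2b. None was named L2 without a letter. The same word occurred in 53 MIR sequences with 17 different 5' ends, of which 42 sequences were named MIR, 10 MIRb and 1 MIRm. It occurred in 0 sequences of the ancient L1, MLT and MST and DNA transposon rows and in 1 of 57568 young L1 sequences. It was also found in 20 mRNA sequences (0.00252%) and 85 unannotated sequences (0.00345%). An example under each family name is shown, with the word or its reverse complement in capitals.
MIRb in Gm10619, sense, chr7:73783119-73783146, minus strand: tgaaacacagtagaagCTCAATAAATAg
L2a on Caprin1, which encodes an RNA-binding protein, antisense, chr2:103767124-103767148, plus strand: TATTTATTGAGtgcctactatgtgc

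All 9 names of the 2 families were represented, 5 of MIR and 4 of L2. MIR names held 35529 sequences and L2 names 21128. MIRb was the most frequent with 13689 sequences, 24.2% of the members, and MIR followed with 10920. L2c had 7364, MIRc 6183, L2b 5265 and L2a 5128. L2 without a letter had 3371, MIR3 3217 and MIRm 1520. The names differed in how many sequences shared a 5' end, defined by the first 20 bases. L2c had 2.39 sequences per 5' end and MIRm 1.28, with 1.77 over all members. The numbers say nothing about how many copies of each element the genome holds, which was not measured here.

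Nearly all members could be placed at a single genomic position, in contrast to young elements. The map number in the table was 1 for 55311 members, 97.6% (exact 95% interval 97.5 to 97.75). By name the share ranged between 93.6% for L2 and 99.15% for L2b. In young L1 elements, whose copies are almost identical, it was 13.3% (13.1 to 13.6). In other old repeats it was 93.2% in ancient L1, 94.7% in MLT and MST and 91.1% in DNA transposons. Of the members with more positions, 632 had 2 and 3 had more than 100.

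The members had the length and first base of piRNAs. The most frequent length was 27 nt, with 10493 sequences, followed by 26 nt with 9905. L2 and MIRc peaked at 26 nt and the other 7 names at 27 nt. Forms of 29 to 31 nt made up 28.4% (28.05 to 28.8) and forms of 25 to 27 nt 47.1%. T was first in 69.45% (69.1 to 69.8) of the members. At position 2 it was found in 21.1%. The share of T as first base was 26.99% at 15 nt, 50.9% at 23 nt, 65.7% at 25 nt and 72.4% at 27 nt. From 26 to 33 nt it lay between 69.4% and 73.8%. L2c had the least T first, 60.8% (59.7 to 61.95), and MIRm the most, 77.7% (75.5 to 79.8).

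**Figure D1:**
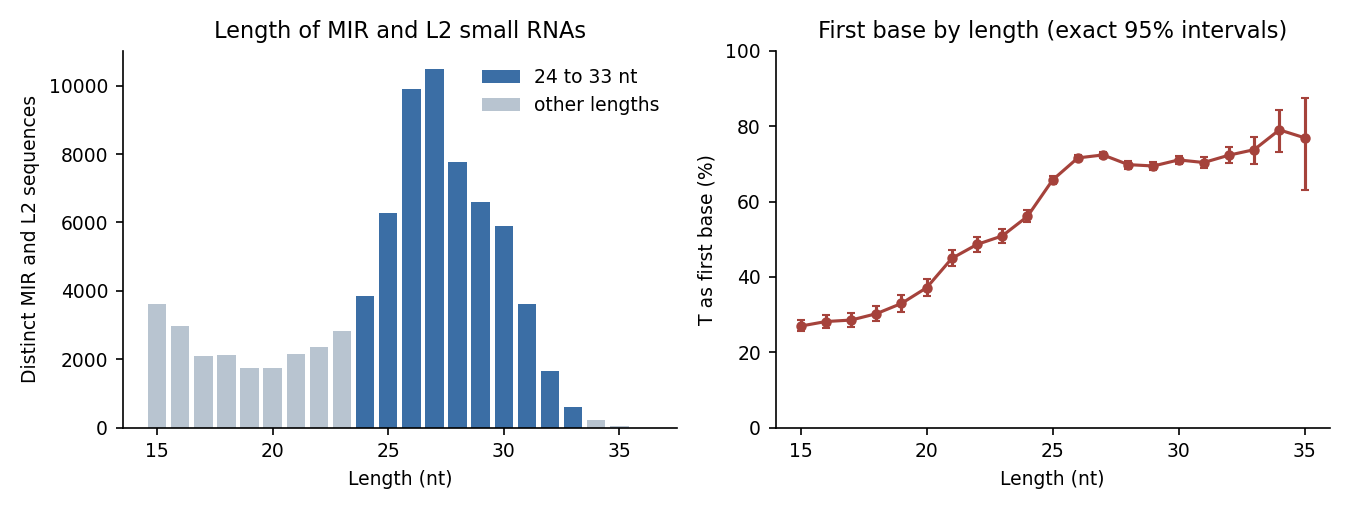
Left, number of distinct MIR and L2 sequences (vertical axis) by length in nt (horizontal axis), with the window of 24 to 33 nt in dark blue. Right, percentage of sequences with T as first base by length, for lengths with at least 50 sequences, with exact 95% intervals. The number peaks at 27 nt with 10493 sequences, and the share of T is 26.99% at 15 nt and 72.4% at 27 nt.

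In first base the members were close to unannotated sequences and below mRNA sequences. T was first in 70.4% of MIR and 67.9% of L2 sequences. It was first in 74.7% of ancient L1 sequences, 72.4% of DNA transposon, 70.5% of MLT and MST, 69.4% of unannotated and 78.4% of mRNA sequences. Young L1 had 60.3%. The interval of all members, 69.1 to 69.8%, included the value of unannotated sequences and that of no other comparison list. This did not hold in either family alone. The MIR interval, 69.9 to 70.8%, included MLT and MST only, and the L2 interval, 67.3 to 68.5%, included no list. Sequences of overlapping fragments are not independent, so the intervals, which cover counting error only, are too narrow for a comparison of lists, and no test was run.

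A at position 10, the mark of ping-pong partners, was slightly more frequent than at the neighbouring positions in L2 but did not peak there in MIR. It was found in 29.2% (28.8 to 29.6) of members, against a mean of 27.9% at positions 9 and 11, a difference of 1.33 percentage points. In MIR it was found in 28.71% at position 10, 27.16% at position 9 and 28.74% at position 11, so position 11 was as high and the difference from the mean was 0.761 points. In L2 the shares were 30% at position 10, 26.9% at position 9 and 28.5% at position 11, and the difference was 2.30 points. It was 2.27 points in ancient L1, 2.59 in MLT and MST, 2.72 in DNA transposons, 2.15 in unannotated and 1.04 in mRNA sequences, and 19.99 points in young L1. The value of L2 was thus near that of unannotated sequences, and that of MIR was below it. The members with another first base than T had A at position 10 more often. The share was 35.5% (34.8 to 36.2) in these and 26.4% (26.0 to 26.8) in members with T first. All 9 names had it higher without T first, from MIR3 with 31.5% against 29.8% to MIRb with 36.6% against 23.6%. The MIR3 intervals overlapped, and those of the other 8 names did not. The contrast was 9.12 points in the members, 11 in DNA transposons, 5.06 in ancient L1, 2.76 in MLT and MST, 4.44 in unannotated and 2.77 in mRNA sequences, and 12.1 in young L1.

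**Figure D2:**
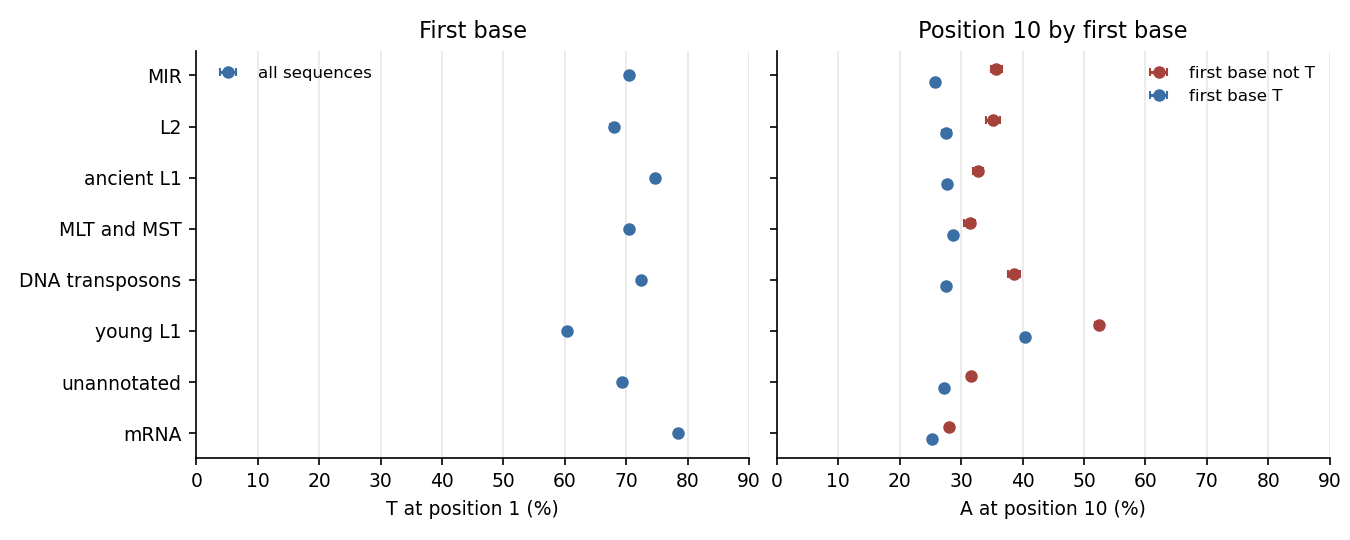
Percentage of distinct sequences of 24 to 33 nt with T at position 1 (left) and with A at position 10 (right), by list, with exact 95% intervals that are mostly smaller than the points. On the right, red points are sequences with another first base than T and blue points those with T first. MIR and L2 lie near the other old repeats in both panels, while young L1 has less T first and more A at position 10.

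Most members came from a small number of crowded stretches. Members that mapped to 1 position and shared 20 bases on either strand were joined into stretches, without a genome. This gave 17278 stretches, of which 14241 were a single sequence. At the other end 328 stretches with at least 10 members held 33153 sequences, 59.9% of the 55311, and 101 stretches with at least 100 members held 26380, or 47.7%. The largest 117 held 50% of the members. Ancient L1 reached 50% with 68 stretches, MLT and MST with 52 and DNA transposons with 120. The 101 large stretches had a median of 221 members (quartiles 143 and 304) and a median span of 122 nt (68 to 324). The largest was a MIRb stretch of 263 nt with 893 members and 249 different 5' ends. The next were a stretch of MIRb and MIRc with 750 members, an L2c stretch with 645 and a stretch of MIRb, MIR and MIRm with 606.

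Crowded stretches were read almost wholly from 1 strand. In the stretches with at least 10 members, 97.25% of sequences lay on the more frequent strand of their stretch. Of these 328 stretches, 151 had no sequence on the other strand, and in 232 the main strand held at least 95%. In the 101 large stretches the minor strand held a median of 0.775% of the members and at most 14.55%. The main strand held 98.9% in ancient L1, 98.4% in MLT and MST and 96.3% in DNA transposons. In the few young L1 sequences that mapped to 1 position it held 72.2%, over 51 stretches.

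**Figure D3:**
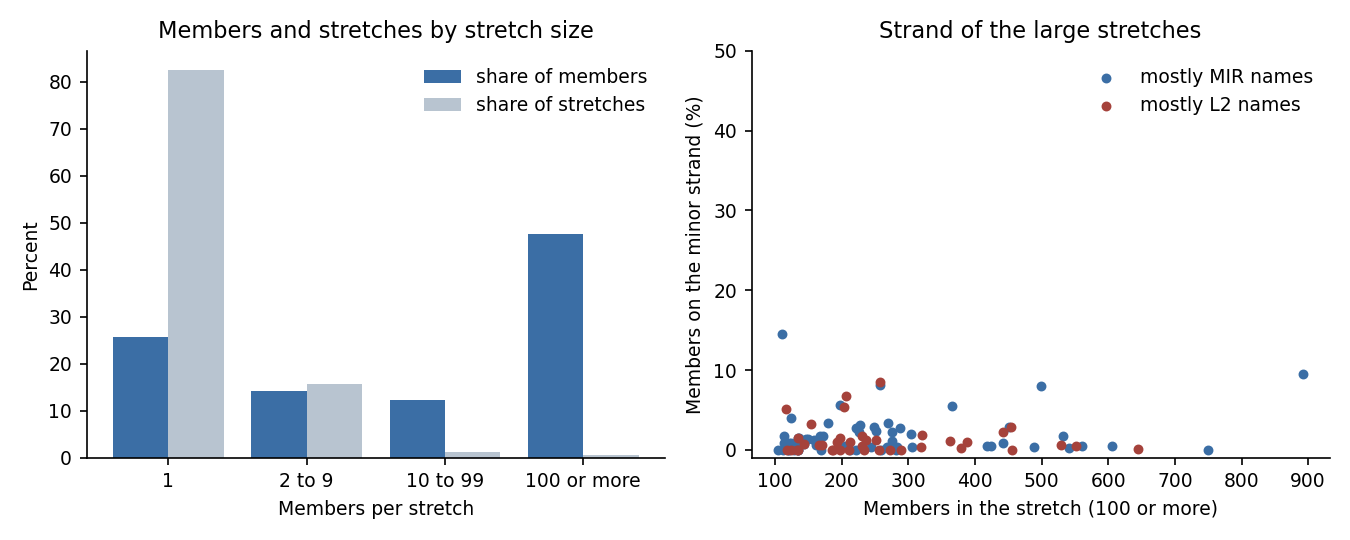
Left, share of members (blue) and of stretches (grey) in percent by number of members per stretch. Right, percentage of members on the minor strand of each of the 101 stretches with at least 100 members, against their number of members, with stretches of mostly MIR names in blue and of mostly L2 names in red. Large stretches hold 47.7% of the members, and all have at most 14.55% on the minor strand.

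Solitary and crowded members differed in first base and length. T was first in 84.8% (84.2 to 85.4) of the 14241 solitary sequences, in 83.2% in stretches of 2 to 9, in 68.6% in stretches of 10 to 99 and in 57.4% (56.8 to 58.0) in stretches of 100 or more. Counting each 5' end once, the share in the last class was 40.4%. Among large stretches it ranged between 10.5% and 79.65%, with a median of 58.2%. Forms of 29 to 31 nt made up 17.1% (16.5 to 17.8) of solitary sequences and 34.35% (33.8 to 34.9) of those in large stretches. Position 10 held A in 27.1% of solitary sequences, 29.2% in stretches of 2 to 9, 32.8% in stretches of 10 to 99 and 29.1% in stretches of 100 or more. Stretch size moves with the number of distinct reads at a place, and its part in these differences was not tested.

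Sequences next to a stretch were often unannotated, as were many in the whole list. Of the 328 stretches with at least 10 members, 168 (51.2%) shared 20 bases on the same strand with at least 1 sequence of another annotation that mapped to 1 position. In 144 stretches a neighbour was unannotated, in 21 it was annotated to an mRNA and in 9 to something else. Of all 4883266 sequences of 24 to 33 nt, 2463484 were unannotated and 793803 were annotated to an mRNA. Of the solitary sequences, 96 of 14241 (0.674%) had such a neighbour. A larger stretch offers more runs of 20 bases to share, so these shares are not matched for stretch size.

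Within stretches, opposite-strand 5' ends that overlapped by 10 nt were more numerous than at any other overlap under 20 nt. There were 380 such pairs of distinct 5' ends. At the other overlaps from 1 to 19 nt there were between 219 and 290 pairs, with a mean of 263.7 (SD 19.45 over these overlaps). The number at 10 nt was 1.44-fold this mean. Overlaps of 20 to 29 nt, which the joining rule itself favours, had between 299 and 342 pairs. The pairs lay in 133 stretches, and the largest stretch held 48 of them. Without it there were 332 pairs, against a mean of 222.8. The ratio was 1.69 for L2 alone and 1.32 for MIR alone. It was 1.49 in ancient L1, 1.53 in MLT and MST, 1.30 in DNA transposons and 1.26 in young L1 sequences that mapped to 1 position. The pairs at 10 nt also differed in their first bases. Only 6.58% (4.30 to 9.56) had no T first on either side, against 31.4% (30.1 to 32.75) at the other overlaps. In 67.1% there was T first on 1 side and in 26.3% on both, against 48.4% and 20.2% at the other overlaps. These include the overlap of 1 nt, where the first bases face each other and 2 of 219 pairs had T on both.

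**Figure D4:**
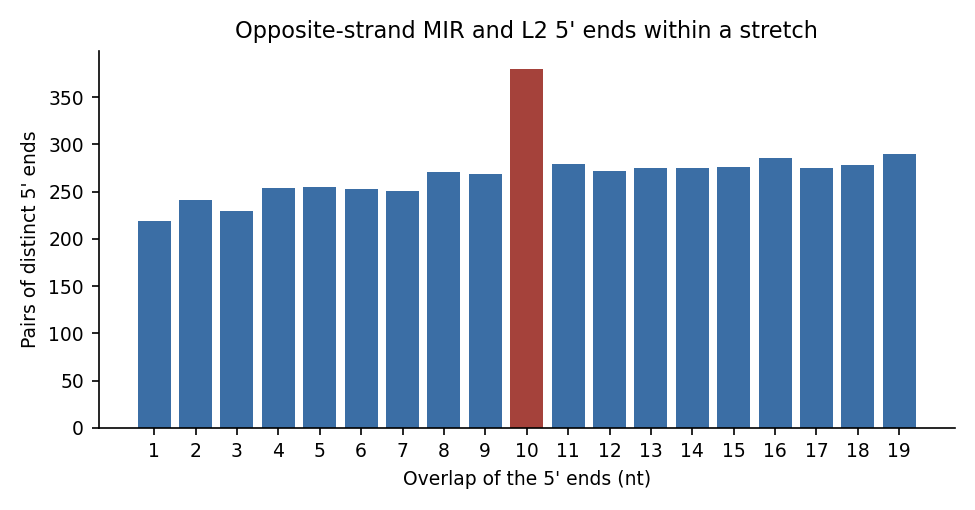
Number of pairs of distinct 5' ends on opposite strands of the same MIR or L2 stretch (vertical axis) by the overlap of the 5' ends in nt (horizontal axis). The bar at 10 nt, in red, stands at 380, and the other bars lie between 219 and 290.

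Located examples of such pairs show the arrangement. Capitals mark the first 10 bases of each sequence, which are the reverse complement of the partner's first 10.
1700029M20Rik, MIR, sense, chr4:135629250-135629273, plus strand: GATCTCTTTGtgcccacgtgtccc
Its antisense partner, MIR, chr4:135629233-135629259, minus strand: CAAAGAGATCaacatgctcagggcaat
Gm21269, L2c, sense, chr7:73821836-73821865, plus strand: TCCCAAGGTCtccagtgacttccccacgac
Its antisense partner, L2c, chr7:73821820-73821845, minus strand: GACCTTGGGAgcaaaaatgaagcatt
In the second pair the sense sequence begins with T and its partner has A at position 10. In the first pair neither sequence begins with T.

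A comparison that did not use the layout also gave more partners at 10 nt, by an amount that depended on which partners were allowed. Of 32091 member 5' ends, 11.5% (11.1 to 11.8) had the complement of their first 10 bases among the member 5' ends. The mean was 8.92% (SD 0.227) when 10 bases ending at positions 11 to 20 were compared. Only at 10 nt did the compared bases include the first base, which is mostly T. The mean at 11 to 20 nt is thus not matched in base composition, and the part of composition in the ratios was not tested. The ratio was 1.285 for the members, 1.24 for MIR and 1.58 for L2. With partners from the whole table, most 5' ends had one, 84.3% at 10 nt and 80.1% on average at 11 to 20 nt, and the ratio was 1.05. With partners from the same list, the ratio was 1.23 in ancient L1, 1.35 in MLT and MST, 1.49 in DNA transposons and 1.36 in young L1. Among sequences that mapped to 1 position it was 1.29 in the members, where 11.2% had a partner at 10 nt against 8.73%. It was 2.85 in young L1, where 24.3% did against 8.52%, unlike the ratio of 1.26 that the layout gave for young L1.

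On annotated transcripts, members lay mainly on the sense strand and were divided between long noncoding and protein-coding genes. Of the 55311 members with 1 position, 9132 (16.5%, interval 16.2 to 16.8) matched a spliced GENCODE transcript exactly over their whole length. Of all other sequences with 1 position, which include those annotated to mRNAs, 27.01% did. Shares in ancient L1, MLT and MST, and DNA transposons were 6.86%, 12.02% and 11.4%. Of the 9044 members that matched a single gene, 92.4% (91.85 to 92.95) were sense to it, against 87.9% of the other sequences. By kind of gene the order differed. On long noncoding genes 96.05% of members and 91.2% of other sequences were sense, and on protein-coding genes 89.8% and 91.4%. The share sense to a single gene was 94.6% in ancient L1, 94.7% in MLT and MST and 89.1% in DNA transposons. Long noncoding genes took 51.8% (50.7 to 52.8) and protein-coding genes 45.4%. Among the other sequences these shares were 21.6% and 70.85%. Rows annotated to mRNAs are among the other sequences and, by the choice of members, not among the members. The contrast in matched and in coding shares therefore depends in part on the annotation itself. Old repeats differed widely in the share on long noncoding genes, which was 70.9% in MLT and MST, 45.9% in ancient L1 and 25.5% in DNA transposons. Only 15 of the 101 large stretches had a member on a transcript, and the others could not be placed.

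The matches were concentrated on a few genes. Sense members fell on 922 genes, but 10 genes held 57.5% of them and 467 genes had a single one. Among long noncoding genes, the first 10 held 88.6% of 4498 sense members, and 3 genes held 50%. Among 691 protein-coding genes the first 10 held 35.3% of 3685. By position, located members within 5 kb of each other formed 1112 loci, of which the 10 richest held 52.1%. Counting each 5' end once, the 10 richest held 30.02% of 5030.

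The gene with most members was the noncoding gene 1700029M20Rik (chr4:135626655-135630198, plus strand), with 1068 sense members and 1 antisense. They made up 17.9% of the 5967 sense sequences of the gene and carried the names MIR, L2b and L2c. The second was the noncoding gene 1700001L05Rik (chr15:83353847-83367282, minus strand), with 958 sense members, 0 antisense and the names MIRb and L2b, which covered 396 nt. They were 9.36% of its 10237 sense sequences. The third was Tbl2 (chr5:135149657-135165760, plus strand), which encodes a protein with WD repeats and was the only protein-coding gene among the first 10. Its 904 sense members, named L2 and MIRc, were 22.8% of its 3958 sense sequences, with 0 antisense, and all 904 started in the 3' untranslated region.

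The other genes of the first 10 were noncoding. Gm21269 (chr7:73816546-73838898, plus strand) had 376 sense members, all L2c, and its neighbour Gm10619 (chr7:73781429-73816503, minus strand) had 335 from MIR, MIRb and MIRc, with 12 antisense. Gm49794 on chromosome 17 had 337 (MIRb and L2b), Gm21388 on chromosome 3 had 259 (L2c and MIR), and D130017N08Rik on chromosome 5 had 244, all MIRb. 4933404O12Rik on chromosome 5 had 197 and Gm30132 on chromosome 8 had 126, all MIR in both. In the 8 genes after the first pair, the members' share of all sense sequences was between 1.31% and 22.8%. At 9 of the 10 genes, all but Gm10619, no more than 6 members were antisense.

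Members were denser than the rest of the same transcript in 5 of the 10 genes and sparser in the other 5. Density was the number of distinct sense sequences per kb of transcript that such sequences covered. In 1700029M20Rik it was 2292 per covered kb for members and 1888 for other sequences. In 1700001L05Rik it was 2419 and 1787, in Tbl2 1177 and 606, and in D130017N08Rik 2179 and 1833. In 4933404O12Rik it was 970.4 and 571. The genes with sparser members were Gm49794, Gm10619 and Gm21388 as well as Gm21269 with 1315 and 1949 and Gm30132 with 589 and 1229. Covered length was between 112 and 768 nt for members, so these densities rest on short pieces.

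**Figure D5:**
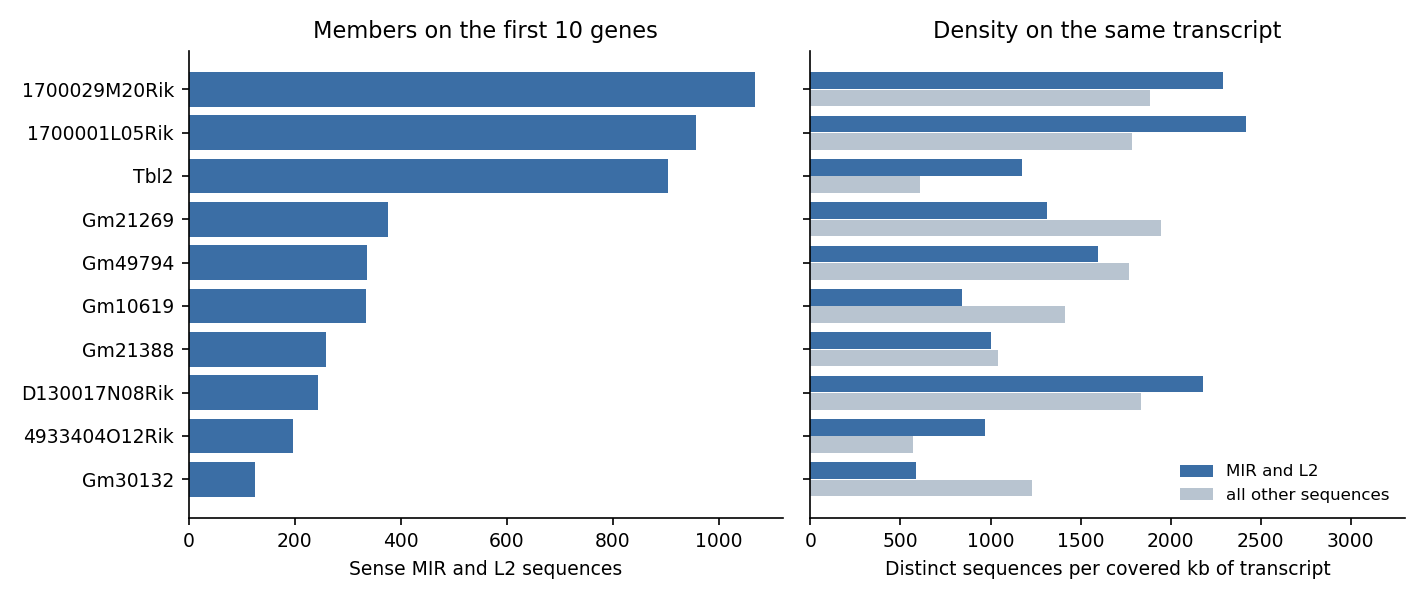
Left, number of distinct sense MIR and L2 sequences on the 10 genes with most. Right, distinct sense sequences per covered kb of 1 transcript of each gene, for MIR and L2 in blue above all other sequences in grey. The first gene has 1068 members, and members are denser than other sequences in 5 of the 10 genes.

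On the sense strand, the share of members with T first was near that of the other sequences on the same kind of gene. Forms of 29 to 31 nt were more frequent in members on protein-coding genes. On the sense strand of long noncoding genes, T was first in 61.1% (59.7 to 62.6) of members and 65.1% (64.9 to 65.3) of other sequences. On the sense strand of protein-coding genes the values were 78.0% (76.6 to 79.3) and 77.8% (77.7 to 77.9). Forms of 29 to 31 nt made up 33.1% of members and 31.97% of other sequences on long noncoding genes, and 28.7% and 23.8% on protein-coding genes. Among the first 10 genes, T was first in 47.1% of the members on Gm21388, the lowest share, and in 75.4% on Gm30132, the highest. The other sequences of these genes had 67.1% and 69.3%.

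In mRNAs the members lay mostly in 3' untranslated regions. In 439 coding genes with a representative transcript, 90.7% (89.5 to 91.7) of 2847 sense members started in the 3' untranslated region, 3.06% in the coding sequence and 6.29% in the 5' untranslated region. The other sequences of these genes had 76.95%, 19.9% and 3.19%. The 3 regions made up 58.8%, 35.3% and 5.88% of the transcript length. The positions of MIR and L2 copies in these transcripts were not used here, so the share of each region that consists of such copies is not known.

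Antisense members were few, 686 on 270 genes. Kcnk10, which encodes a potassium channel (chr12:98429437-98578310, minus strand), had 82, all MIRb and all in its 3' untranslated region, where they covered 209 nt, among 2355 antisense sequences, and 2 sense members. AC141471.6 on chromosome 18 had 25 antisense members, Gm45114 on chromosome 7 had 21, Ccdc84 on chromosome 9 had 16 and Mypopos on chromosome 7 had 14. T was first in 80.5% (74.1 to 86.0) of the 185 antisense members on long noncoding genes and in 84.25% (80.4 to 87.6) of the 419 on protein-coding genes. The other antisense sequences had T first less often, in 67.6% (66.9 to 68.2) and 79.6% (79.3 to 79.9). Forms of 29 to 31 nt made up 21.1% and 19.1% of these antisense members, against 28.2% and 18.8% of the other antisense sequences. Position 10 held A in 40% (32.9 to 47.4) of the antisense members on long noncoding genes and 25.1% (20.98 to 29.5) of those on protein-coding genes. The other antisense sequences on these kinds of gene had it in 35.3% and 26.0%.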

How the data were processed

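The authors deposited 1 table of distinct sequences, which per the file headers holds a sequence, a map number and an annotation. The map number was read as the number of positions to which a sequence mapped, from its name and its whole values; it is not a read number. Aligner, genome build, annotation sources and the libraries pooled: not given in the sources used here. Columns of per-sample values numbered 0. The planned comparison of homozygous with heterozygous libraries could not be made, and the report holds no test or p-value.

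Members and lists were chosen with earlier results of these data known. Comparison lists were built from annotation names: ancient L1 (L1M, L1P, HAL1), MLT and MST, DNA transposons (Charlie, URR1, Tigger, MER20 and others), young L1 (L1Md_A, T and Gf), mRNA accessions and blank annotations. Intervals are exact (Clopper-Pearson, 95%) and cover counting error only.

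Sequences were matched exactly to both strands of 141767 spliced transcripts of GENCODE release M21 (GRCm38). No genome was used, so introns and intergenic copies were not located and the planned loci rest on transcripts. Of 667 stretches with at least 2 located members, 4 had them over 2 kb apart or on more chromosomes. All names of the members, the 10 richest loci, the 10 genes with most sense and 5 with most antisense matches were named by rule. The printed words of 11 bases were chosen afterwards. The methods were tested on simulated data (Python 3.11.15, numba 0.67.0, scipy 1.17.1).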

Additional observations from a re-analysis of the deposited data

Results flagged for a closer look

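Members outside the window of 24 to 33 nt took no part in the report's measurements of stretches, partners and transcripts, and drew attention for that reason. There were 10823 MIR and L2 sequences of 15 to 18 nt, below the labelled minimum of 19 nt, and 25.5% of them mapped to 1 position. T was first in 28.3% (27.4 to 29.1). Of the 2138 sequences of 18 nt, 770 (36.01%) were identical to the start of a member of 24 to 33 nt. A further 10846 sequences were 19 to 23 nt long, with T first in 44.1% and 93.2% at 1 position. Another 279 sequences were 34 to 36 nt long, over the 33 nt that the labels give as the upper size, with T first in 78.85% (73.6 to 83.5).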

How the results depend on the processing

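Of 75 alternative values, 54 stayed within the interval of the reported value or, for counts and ratios, within 1.5 times of it. Counting 5' ends gave 32091 members, T first in 70.01% and 30.02% of located 5' ends in the 10 richest loci, and moved the counts of 8 of the 9 names by more than 1.5 times, with MIRm as the exception. T was first in 70.4% at 25 to 32 nt. MIR alone had T first in 70.4% and A at position 10 in 28.7%, and L2 alone 67.9% and 30%. With partners from the whole table, 84.3% of 5' ends had one at 10 nt, where 11 to 20 nt gave 80.1% on average. At 25 to 32 nt, 50.7% of members on a single gene were on long noncoding genes. Joining loci at 1 kb put 48.7% of located members in the first 10. The alternatives on stretches were chosen after seeing the data. With 16 shared bases 74 stretches held 50% of the members and there were 741 pairs at 10 nt, in part because separate places were joined, with 5196 members in the largest stretch. The ratio at 10 nt lay between 1.27 and 1.49 in all settings. Depth is unknown, so absence of a sequence sets no limit on its level. No paired analysis was possible because no column carries a replicate number or a library.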

Other observations

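Some 5' ends, defined by the first 20 bases, occurred in both size classes of piRNAs. Of 32091 member 5' ends, 8426 (26.3%) had at least 2 sequences, and 4706 (14.66%, interval 14.3 to 15.1) had at least 1 form of 25 to 27 nt and 1 of 29 to 31 nt. The largest number of sequences from 1 member 5' end was 20.

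Within stretches, the share of 3' ends followed by a 5' end on the same strand was highest at 1 nt and declined with distance. Of 35356 distinct 3' ends laid out in stretches, 13.85% (13.5 to 14.2) were followed by a 5' end at 1 nt, 13.6% at 2 nt, 12.07% at 10 nt and 10.2% at 20 nt. The share declined at every step between these distances, in small steps and without a jump at 1 nt. The 14241 solitary sequences can have no such 5' end, and stretches are short, so fewer positions remain at greater distances. The part of the layout in the decline was not tested, and no comparison list was measured.

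Members with A at position 10 but no T first averaged 27.59 nt, and members with T first but no A at position 10 averaged 27.57 nt. In young L1 the same groups averaged 28.15 nt and 27.88 nt.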
